A study of Mus musculus with 2 samples.

Results

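The genes described here encode 5 C/EBP transcription factors, read in the mouse uterus: Cebpa, Cebpb, Cebpd, Cebpg and Ddit3. They are 5 of the 21787 protein-coding genes in the annotation. Their peaks were chosen by position: a peak of m6A (N6-methyladenosine, a methyl mark inside many mRNAs) was counted for a gene when its summit lay inside the RefSeq span of that gene on the mouse build mm10. This gave 5 peaks of the 38366 in the list. The list came from methylated RNA immunoprecipitation sequencing, in which RNA fragments bound by an anti-m6A antibody are read beside the RNA without antibody, called the input. The m6A library was made from whole uterus of wild-type C57BL/6 mice, labelled as an equal pool of gestation days 4 and 8, and the input library from whole uterus of the same strain, with no pooling or day in its label. Peak names in the list mention day 8 and not day 4, so the makeup of the pool rests on the label. With 1 library per group no test between groups was possible, and the days cannot be told apart.

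C/EBP proteins are basic leucine zipper (bZIP) factors: the zipper joins a pair of them into a dimer, and the basic region binds DNA. C/EBP beta (Cebpb) is required for the mouse uterine stroma to form decidua, the tissue that surrounds the implanting embryo, and its gene responds to steroid hormones and cyclic AMP. C/EBP alpha (Cebpa) and C/EBP delta (Cebpd) are best known from fat cell differentiation and the acute-phase response. C/EBP gamma (Cebpg) lacks an activation domain and acts mainly as a dimer partner, and CHOP (Ddit3) is a stress-induced partner that keeps other C/EBP proteins from their usual sites. Cebpa, Cebpb and Cebpd are genes without introns, so for these the span and the transcript are the same stretch of the genome.

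Every member carried an m6A peak, and each carried exactly 1. The members were chosen with earlier results of these data known, and Cebpe, a family gene outside the set, had no peak. The 5 of 5 stand beside 55.7% of all protein-coding genes with at least 1 peak, and beside 47.6% of the 5796 protein-coding genes whose span lay in the members' range of 1518 to 10145 bases. Exactly 1 peak was found in 34.1% of peak-carrying protein-coding genes and in 47.3% of those in the span range. All 5 summits lay in a single annotated gene span, and few summits in the list lay in more. Over all 38366 peaks, those in no gene included, 7.51% had a summit in at least 2 spans. Fold enrichment at the summit, which the authors' caller took as immunoprecipitated (IP) fragments over local background, ran from 9.10-fold in Cebpd to 16.8-fold in Cebpb. The median over the members was 13.5-fold, against a median of 8.04-fold (quartiles 5.85 and 10.9) for the highest peak of the 12134 peak-carrying protein-coding genes. For peak-carrying genes in the span range that median was 7.35-fold. In bulk tissue, fewer cells of a type and less RNA per cell cannot be told apart, and no expression values were used here.

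The peak of Cebpb covered nearly the whole gene. Cebpb (NCBI Gene 12608) lies on chromosome 2 from 167688915 to 167690432 on the plus strand, and its peak ran from 167688888 to 167690372. The peak was 1485 bases wide and covered 96.0% of the span. It began 27 bases before the annotated start and ended 60 bases before the annotated end. Its summit, at 167689654, lay 739 bases from the 5′ end and 778 from the 3′ end, in the middle of the gene. At the summit there were 151 IP fragments over a background of 8.03 scaled fragments, which gave 16.8-fold (14.3 to 19.7). The range in brackets after a fold is the exact 95% Poisson interval of the IP count, taking the background as known, and covers counting error only.

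The peak of Cebpa was the widest of the set and also began before the gene. Cebpa (NCBI Gene 12606) lies on chromosome 7 from 35119293 to 35121928 on the plus strand, and its peak ran from 35119277 to 35121022, or 1746 bases. This peak covered 65.6% of the span and left the last 906 bases uncovered. Its summit lay 887 bases from the 5′ end, 33.7% of the way along the gene. There were 95 IP fragments over a background of 4.94, the lowest background among the members, and the enrichment was 16.2-fold (13.1 to 19.7).

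Because these peaks cross the annotated start, the 250 bases upstream of it are shown, 5′ to 3′ on the plus strand, from RefSeq on GRCm38.p6, the assembly of mm10. Capitals mark the upstream bases inside the m6A peak: 27 in Cebpb and 16 in Cebpa.
Cebpb (chr2:167688665-167688914): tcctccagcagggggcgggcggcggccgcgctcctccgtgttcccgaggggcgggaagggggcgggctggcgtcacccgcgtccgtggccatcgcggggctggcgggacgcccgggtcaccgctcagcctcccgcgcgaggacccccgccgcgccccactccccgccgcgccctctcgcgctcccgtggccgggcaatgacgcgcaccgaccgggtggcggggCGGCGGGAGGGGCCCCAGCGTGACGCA
Cebpa (chr7:35119043-35119292): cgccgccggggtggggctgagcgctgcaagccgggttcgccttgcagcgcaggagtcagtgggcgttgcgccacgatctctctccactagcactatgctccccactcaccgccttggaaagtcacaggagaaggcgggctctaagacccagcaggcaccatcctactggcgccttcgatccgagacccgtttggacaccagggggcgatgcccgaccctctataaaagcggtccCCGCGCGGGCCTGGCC
Of the 2185 peak-carrying genes of the span range with a known strand, 8.28% had a highest peak that reached or passed the 5′ end of the span.

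**Figure D1:**
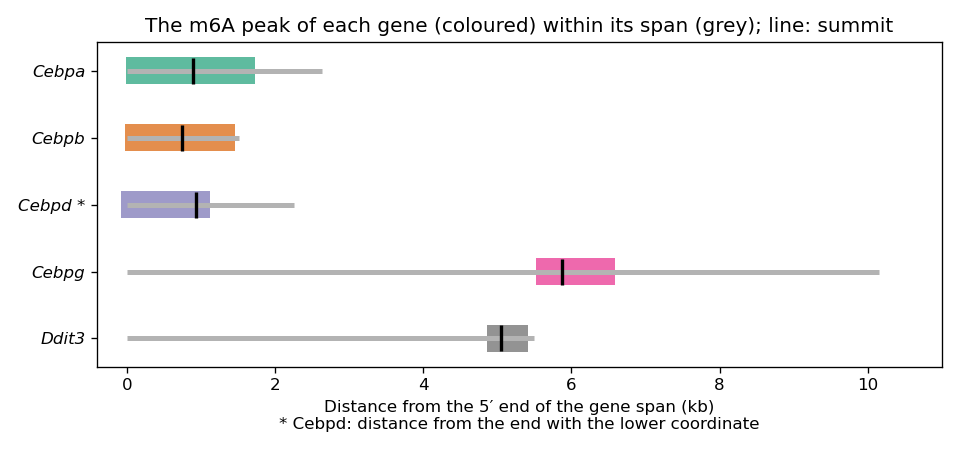
Position of each m6A peak in its gene. The x axis is the distance in kb from the 5′ end of the gene span (for Cebpd, whose strand was not in the table used, from the end with the lower coordinate); grey bars are spans, coloured bars peaks and black lines summits. The peaks of Cebpa, Cebpb and Cebpd cover a large part of short genes, while that of Cebpg lies inside a gene of 10145 bases and the summit of Ddit3 lies 453 bases from the 3′ end.

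Cebpd had the lowest enrichment of the members. Cebpd (NCBI Gene 12609) lies on chromosome 16 from 15887286 to 15889545, and its strand was not in the start-site table used. Its peak, from 15887209 to 15888404, was 1196 bases wide, began 77 bases outside the lower end of the span and covered 49.5% of it. The summit at 15888215 lay 929 bases from the lower end and 1330 from the upper end. The 98 IP fragments were close in number to the 95 of Cebpa, but the background of 9.88 was higher, and the enrichment was 9.10-fold (7.40 to 11.1). The span of Cebpd shares its upper 322 bases with that of Spidr, a DNA repair gene, and the Cebpd peak ended before this overlap.

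In Cebpg and Ddit3, genes with introns, the peak covered a small part of the span. Cebpg (NCBI Gene 12611) lies on chromosome 7 from 35046422 to 35056566 on the minus strand, 62726 bases from Cebpa. Its peak, from 35049984 to 35051049, was 1066 bases wide and covered 10.5% of the span. The summit lay 5876 bases from the 5′ end and 4268 from the 3′ end, or 57.9% of the way along. It held 154 IP fragments, the highest number among the members, over the highest background, 10.5, for 13.5-fold enrichment (11.4 to 15.8). Gm45095, an annotated protein-coding gene on the plus strand, overlaps 1084 bases at the 5′ end of Cebpg and had no peak.

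The Ddit3 peak was the only member peak under 1000 bases, and its summit was the nearest to a 3′ end among the 4 members with a known strand. Ddit3 (NCBI Gene 13198) lies on chromosome 10 from 127290793 to 127296291 on the plus strand, and its peak from 127295654 to 127296205 was 552 bases wide. The summit lay 5045 bases from the 5′ end, 91.8% of the way along, and 453 bases from the 3′ end. There were 114 IP fragments over a background of 8.03, for 12.7-fold (10.5 to 15.3). The last 71 bases of Ddit3 overlap Mars1, a methionyl-tRNA synthetase gene on the minus strand, and the Ddit3 peak stopped 86 bases short of the gene end, outside that overlap. A separate peak of 4.55-fold (3.47 to 5.88) had its summit 140 bases past the end of Ddit3, inside Mars1. The peak list carries no strand, so fragments of the opposing transcripts near this end cannot be told apart.

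The summits of the 4 members with a known strand did not share a relative position. They lay at 33.7% (Cebpa), 48.7% (Cebpb), 57.9% (Cebpg) and 91.8% (Ddit3) of the span from the 5′ end. Over the 2185 peak-carrying genes of the span range with a strand, the median was 62.2%, with quartiles of 23.4% and 87.1%. A summit in the last 10% of the span, as in Ddit3, was found in 20.9% of these genes. A summit between 30% and 60%, as in Cebpa, Cebpb and Cebpg, was found in 19.8%. Both ranges were chosen to hold the summits of the members named, so their falling inside is not a result. Spans include introns, and no exon or coding positions were used here, so a summit is not assigned to a coding part or an untranslated part.

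**Figure D2:**
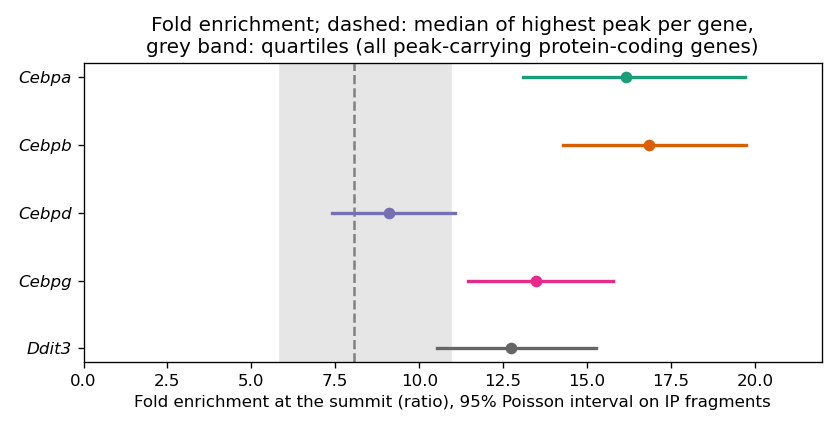
Fold enrichment at the summit (x axis, ratio) for each gene, with the exact 95% Poisson interval on IP fragments; the dashed line is the median (8.04) and the grey band the quartiles (5.85 to 10.9) of the highest peak per peak-carrying protein-coding gene. Cebpa, Cebpb and Cebpg lie wholly right of the band, Ddit3 lies right of it with an interval that reaches into it, and the point of Cebpd lies inside it.

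Ordered by fold, the members ran from Cebpb and Cebpa through Cebpg and Ddit3 to Cebpd. Of the 10 pairs among them, 7 had overlapping intervals, including every pair of neighbours in this order. The 3 pairs with separate intervals set Cebpd against Cebpb, Cebpa and Cebpg, with ratios of 1.85, 1.78 and 1.48. Cebpb and Ddit3 stood on the same background of 8.03, so their ratio of 1.32 came from 151 against 114 IP fragments, and their intervals overlapped. Member backgrounds were close to whole multiples of the step of 0.618 seen across the list: 8 steps in Cebpa, 13 in Cebpb and Ddit3, 16 in Cebpd and 17 in Cebpg. The number of input reads behind a step is not known, so no error of the background enters the intervals.

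Cebpb ranked 751 among the highest peaks of the 12134 peak-carrying protein-coding genes, at percentile 93.8. Cebpa was at percentile 93.0, Cebpg at 86.9, Ddit3 at 84.5 and Cebpd at 60.9. A fold as high as that of Cebpd or higher was found in 39.1% of these genes. By the caller's −log10 q, which grows with depth as well as fold, the members ranked higher: Cebpb at 127.7 was at percentile 99.5, rank 62. Cebpg followed at 114.7 (percentile 99.1), Ddit3 at 83.3 (96.9), Cebpa at 81.0 (96.6) and Cebpd at 57.8 (90.2). A −log10 q of at least the lowest member's was found in 9.77% of peak-carrying protein-coding genes. The peaks were also wide, at 552 to 1746 bases with a median of 1196, against a median of 404 for the best peak of each gene that carried any. Of the members 4 reached 1000 bases, as did 15.8% of those genes.

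The backgrounds of the members, 4.94 to 10.5, were above the median of 3.09 over the 12134 best peaks, and their 95 to 154 IP fragments were above the median of 35. High folds in this list mostly stood on less input: the 751 genes with a fold at or above that of Cebpb had a median background of 1.62. Besides Cebpb, 3 of these genes had a background as high as its 8.03 or higher, compared to 2 decimals. They were Snrnp70, a spliceosome component gene, at 20.7-fold (18.1 to 23.5), Htatsf1 at 17.1-fold (14.5 to 19.97) and Ddx24, an RNA helicase gene, at 16.9-fold (14.4 to 19.6), and they are named because of these values. Among the 202 genes whose highest peak had the background of Cebpb and Ddit3, the median fold was 6.59. In that set 2 genes, Cebpb included, reached the fold of Cebpb, and 11, Cebpb and Ddit3 included, reached that of Ddit3. Over the 2555 genes with a background in the members' range, the median was 7.22-fold, with quartiles of 5.34 and 9.50. Within this set Cebpb stood at percentile 98.5, Cebpa at 98.1, Cebpg at 94.8, Ddit3 at 92.95 and Cebpd at 71.3.

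**Figure D3:**
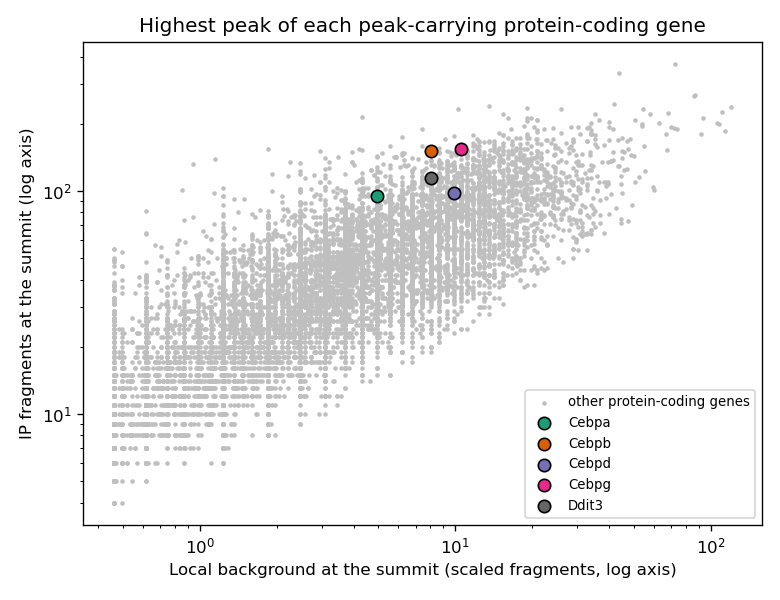
IP fragments (y axis, log) against local background in scaled fragments (x axis, log) at the summit of the highest peak of each peak-carrying protein-coding gene; coloured points are the 5 C/EBP genes and grey points all others. At equal background, Cebpb lies above Ddit3 (151 against 114 fragments), and Cebpd (98 fragments) lies lowest relative to its background of 9.88.

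Each member's closest match in the list was sought among all peak-carrying protein-coding genes by fold, number of peaks, gene span and the summit's distance from the nearer gene end as a share of the span. This likeness rests on 1 pair of libraries. The nearest gene to Cebpa was Hspa1a, an inducible chaperone gene, with 1 peak of 16.4-fold (12.7 to 20.8) in a span of 2798 bases. Cebpb had the least close match, at a distance of 0.46 SD units against 0.061 to 0.20 for the others. Its nearest gene, Alyref2, an mRNA export factor gene, reached 20.8-fold (15.2 to 27.9) on a background of only 1.11. For Cebpd it was Ccdc166 at 9.46-fold, for Cebpg Misp at 12.4-fold and for Ddit3 Artn at 12.98-fold. These 5 matches rested on 19 to 66 IP fragments, fewer than any member.

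Outside the spans, no summit lay within 20 kb of Cebpa or Cebpd. Beyond the 3′ end of Cebpb, the long non-coding RNA gene A530013C23Rik starts after a gap of 326 bases on the same strand and held 2 peaks. Their summits lay 1592 and 4059 bases past the end of Cebpb, at 5.63-fold (3.62 to 8.39) and 9.27-fold (5.96 to 13.8), each from 22 IP fragments. Peaks were found in 12.4% of the long non-coding RNA genes in the annotation. One summit of 4.25-fold lay 1984 bases from the 3′ end of Cebpg, inside the prolidase gene Pepd. Beside Ddit3, 5 summits lay in Dctn2, Mbd6 and Mars1, all at 3.06-fold to 5.85-fold, below the 12.7-fold of Ddit3.

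The start-site windows of the 4 members in the RefSeq table, 250 bases before to 50 bases after the start, were rich in G and C: 80.7% in Cebpb, 71.7% in Cebpg, 67.3% in Cebpa and 60.7% in Ddit3, against a median of 52.7% over 32851 windows. They were searched on both strands for 5 motifs. TATAAA, the core of the TATA box, was in 13.6% of all windows and in those of Cebpa, beginning 30 bases before the start, and Cebpb, beginning 21 bases after it. In Cebpa these letters lie close upstream of the capitals printed above. TGACG, the core of the cyclic AMP response element, had at least 1 match in 20.8% of all windows. In that of Cebpb it occurred 3 times, with the last match inside its capitals. The share of windows with 3 matches was not counted. By G and C the Cebpb window stood at percentile 99.2, and windows of like content were not compared. CCAAT was in 37.4% of all windows, with 2 matches in Cebpg and 1 in Ddit3. The full palindromes TGACGTCA (1.79% of windows, each of which also counts for TGACG) and TTGCGCAA, a C/EBP site (0.183%), were in none of the 4. These are matches of letters and not sites of binding.

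Among genes named after C/EBP outside the set, 2 of 3 had a peak (66.7%, beside 55.7% of all protein-coding genes). Cebpz had 5, Cebpzos had 1 and Cebpe had none. Cebpe encodes C/EBP epsilon, the granulocyte member of the family, and its lack of a peak does not separate a missing mark from a missing or scarce transcript. Cebpz, which shares the name but encodes no bZIP factor, had a highest peak of 11.2-fold (9.04 to 13.7). The peak of Cebpzos, at 3.14-fold, had its summit inside Cebpz too.

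Among 45 other bZIP factors, the possible partners and relatives of C/EBP proteins, 40 held at least 1 peak (88.9%, with an exact Clopper-Pearson 95% interval from 75.9 to 96.3). The share over all protein-coding genes was 55.7%. Neither this list nor those below were matched to other genes for span, and their shares were not tested. The median of their highest folds was 7.68, close to the 8.04 over all peak-carrying protein-coding genes and below the 13.5 of the C/EBP members. Of the 40, 15 reached the fold of Cebpd, beside 39.1% of all peak-carrying protein-coding genes. Among the highest were Nfe2l2, the oxidative stress factor gene, at 15.7-fold (12.9 to 19.0) and Bach2, a repressor gene, at 15.6-fold (10.5 to 22.2), whose summit lay in 2 gene spans. A single peak, as in every C/EBP member, was found in 10 of the 40. It was found in 34.1% of all peak-carrying protein-coding genes and in 47.3% of those in the members' span range.

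The stress response around Ddit3, which encodes CHOP, was read over 20 genes. Of these, 18 carried a peak (90.0%, 68.3 to 98.8, beside 55.7% of all protein-coding genes), with a median of 7.12-fold. None of the 18 reached the 12.7-fold of Ddit3. Over all 12134 peak-carrying protein-coding genes Ddit3 ranked 1883 (percentile 84.5), so most such genes did not reach it either. The highest were the chaperone gene Dnajb9 at 12.5-fold (9.96 to 15.5), the stress-induced Nupr1 at 11.5-fold (8.28 to 15.7), with its summit in 2 gene spans, and Eif2ak3, the kinase PERK, at 8.93-fold (6.12 to 12.6). The interval of Dnajb9 overlapped that of Ddit3 (10.5 to 15.3). Asns and Ero1a had no peak. Atf4, the factor that activates Ddit3 under stress and chosen for that role after its value was seen, stood at 3.65-fold (3.05 to 4.34) from 129 fragments over a background of 34.6.

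Of 20 regulators of C/EBP proteins, 18 had a peak (90.0%, 68.3 to 98.8, beside 55.7% of all protein-coding genes), with a median of 9.29-fold. Trib2, a pseudokinase gene whose product directs C/EBP alpha to breakdown, led at 16.4-fold (10.7 to 24.3) on the genome-wide background of 0.462. The acetyltransferase gene Ep300 was also among the highest, at 13.9-fold (10.7 to 17.8). Mapk3 and Celf1 had none.

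All 20 genes of cyclic AMP and protein kinase A signalling, which drives decidual differentiation, had a peak (100%, 83.2 to 100), with a median of 8.98-fold. The share over all protein-coding genes was 55.7%. Akap12, a kinase anchor gene, reached 34.9-fold (26.1 to 45.8) on the genome-wide background, the cyclase gene Adcy9 17.3-fold (12.6 to 23.3) and Prkaca, the catalytic subunit, 14.9-fold (10.6 to 20.5).

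In the decidual programme, 26 of 30 genes had a peak (86.7%, 69.3 to 96.2, beside 55.7% of all protein-coding genes), with a median of 7.94-fold. Wnt6, a secreted signal, led at 22.5-fold (16.3 to 30.2), followed by the stromal nuclear receptor gene Nr2f2 at 18.0-fold (15.1 to 21.4) and the alkaline phosphatase gene Alpl, a marker of decidual cells, at 12.1-fold (8.05 to 17.5). Wnt6 and Nr2f2 exceeded Cebpb in fold, on backgrounds of 0.914 and 6.32, and the intervals of both overlapped that of Cebpb.

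**Figure D4:**
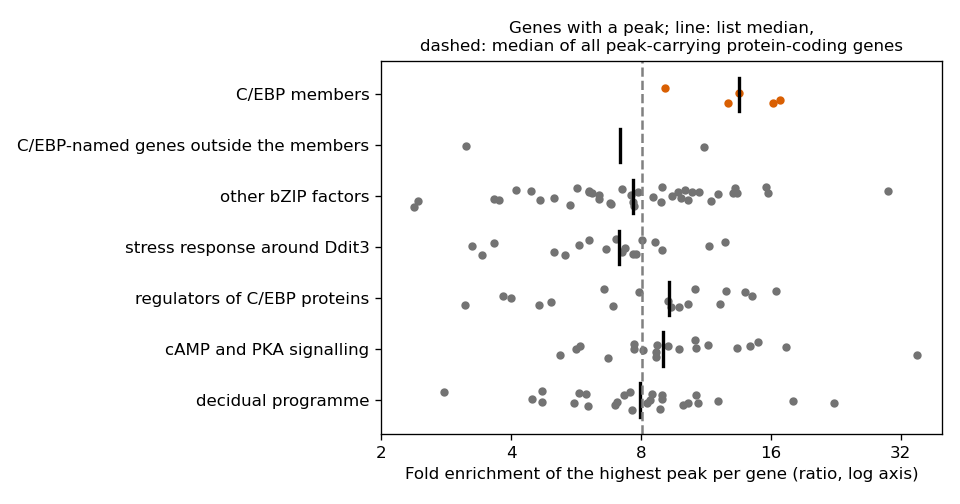
Fold enrichment of the highest peak per gene (x axis, ratio on a log axis) for the C/EBP genes and 6 related lists, with each point a gene that has a peak, black lines list medians and the dashed line the median of all peak-carrying protein-coding genes (8.04). The C/EBP median (13.5) lies to the right of the medians of the 6 lists (7.12 to 9.29), and single genes of other lists reach higher.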

How the data were processed

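Total RNA of whole uterus was made into 1 m6A IP library and 1 input library. HISAT2 2.2.1, MACS3 3.0.0a7 and mm10 are named in the submitters' processing notes, without settings. The only file used was the authors' peak list. The deposited fold enrichment is a ratio taken at the summit: IP fragments plus 1, over local background plus 1. The deposited −log10 p and −log10 q are the caller's at the summit. The deposited display score was not used. Start, end and summit are printed counted from 1. These scores describe and rank peaks within this list only.

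IP fragments and background at each summit were recovered from the fold and the Poisson −log10 p, within 0.001 at 100% of peaks. In 500 pileups simulated with these same formulas 100% were recovered. That checks the arithmetic and not how the deposited scores were made. PCR copies are not independent molecules, and library totals were not used here, so intervals cover counting error only.

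Gene spans came from RefSeq on GRCm38.p6 (49632 genes on assembled chromosomes, 365 rows elsewhere left out). Strand and start-site windows came from a RefSeq table that matched 4 of the 5 members. Exon and genome sequences were not used here. The members and the 6 related lists were chosen with earlier results of these data known, so no list was tested. Named genes were the members, genes at or beside their peaks, the 3 highest of each list, list genes with or without a peak where at most 3, and the nearest match of each member. Some genes that this rule selects are left out. Others are said to be named for their values or roles. Alternatives were a −log10 q floor of 5, a fold floor of 4, overlap of 1 base or 50% of the peak, spans extended by 1000 bases, single-gene summits, merged intervals, ranking by −log10 q and the median fold per gene. The work ran in Python 3.11.15 with scipy 1.17.1, pandas 2.3.3, numpy 2.4.6 and, for figures, matplotlib 3.10.9.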

Additional observations from a re-analysis of the deposited data

How the results depend on the processing

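All 5 members kept their peak and their fold under each alternative run on them: the stricter −log10 q and fold, both overlap rules, spans extended by 1000 bases, single-gene summits, merged intervals and the median fold per gene. Some of these settings could not have moved a member. The lowest member values, a −log10 q of 57.8 and 9.10-fold, lay far above the floors of 5 and 4. Each member had 1 peak, so its median fold was its highest. Every member summit lay in 1 gene span, so the single-gene setting left all of them in. The 1-base overlap and the extended spans could add peaks to a member but could not remove its own. The count of member peaks stayed at 5 except with extended spans, where the Mars1 summit beside Ddit3 made it 6. The share of all protein-coding genes with a peak ran from 51.1% to 57.9% over these settings. Ranked by −log10 q in place of fold, the percentile rose to 99.5 for Cebpb, 90.2 for Cebpd, 99.1 for Cebpg and 96.9 for Ddit3, past what the interval of the fold allows. For Cebpa it stayed within that interval. Of the 3 genes named after C/EBP outside the set, 1 kept a peak with a fold of at least 4 and 1 when summits in more than 1 gene were left out. The other list counts stayed within 1.5 times. The fold rests on 1 pair of libraries, and its interval leaves out the input.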
